A study of Mus musculus with 9 samples.

Results

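The olfactory epithelium replaces its sensory neurons throughout life, and 8 genes that mark successive steps of that replacement were followed here in the main olfactory epithelium of wild-type and Ms4a knockout mice. They were chosen by symbol: Neurog1 and Neurod1 for neuronal progenitors, Mki67 and Top2a for dividing cells, and Gap43, Dpysl3, Tubb3 and Gng8 for immature neurons. The 8 are among 55291 genes in the table of expected counts and among the 23225 genes tested, and all 8 passed the filter of at least 10 counts summed over the mice. RNA-seq had been made from 9 mice, 3 of each genotype: C57BL/6 wild type, C57BL/6 with both copies of the Ms4a cluster deleted by CRISPR/Cas9 (labelled Ms4a cluster-/-), and C57BL/6 with both copies of Ms4a6c deleted by homologous recombination (labelled Ms4a6c-/-). All were 8 to 12 weeks old, and nothing in the labels says whether each knockout line came from more than 1 founder. Ms4a genes encode membrane proteins, many of them found in the necklace sensory neurons, a small part of this tissue. Family members are also reported in other sensory neurons and in immune cells. None of the 8 genes lies in the deleted cluster.

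Globose basal cells are the dividing progenitors of the olfactory epithelium, and horizontal basal cells are its reserve stem cells. A globose basal cell turns on the basic helix-loop-helix factors Neurog1 and Neurod1, leaves the cell cycle, and becomes an immature neuron that extends an axon before it turns on Omp and the odor transduction genes. The axon growth protein GAP43, the collapsin response mediator DPYSL3, the neuronal tubulin TUBB3 and the G protein gamma subunit GNG8 belong to that immature stage. Mki67 encodes a nuclear protein of cycling cells and Top2a the topoisomerase that untangles DNA before division. Both are on in any dividing cell, including dividing cells of other lineages. In bulk tissue, fewer cells of a type and less RNA per cell cannot be told apart.

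Neurog1 (ENSMUSG00000048904.5) is on chromosome 13 at 56250478 to 56252163 of mouse build GRCm38, minus strand, and is a single exon. Neurod1 (ENSMUSG00000034701.9) is on chromosome 2 at 79452521 to 79456751, minus strand, inside the span of Cerkl on the same strand, which was at 6.05 to 9.24 CPM (counts scaled to the size of the library) in these mice. Mki67 (ENSMUSG00000031004.8) is on chromosome 7 at 135689784 to 135716361 and Top2a (ENSMUSG00000020914.17) on chromosome 11 at 98992943 to 99024189, both on the minus strand. Gap43 (ENSMUSG00000047261.9) is on chromosome 16 at 42248442 to 42340651, minus strand. Tubb3 (ENSMUSG00000062380.4) is on chromosome 8 at 123411424 to 123422015, plus strand, and overlaps the readthrough gene model Gm20388. Gng8 (ENSMUSG00000063594.5) is on chromosome 7 at 16891786 to 16895436, plus strand. Reads shared between Neurod1 and Cerkl, or between Tubb3 and Gm20388, would have been divided by the authors' quantification, so levels of these genes carry that uncertainty.

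The start regions of the pair of proliferation genes are shown because both genes belong to dividing cells and their levels across the mice are set side by side below. Each window of 300 bases, from 250 before to 50 after the start, is from RefSeq on GRCm38.p6, 5′ to 3′ on the strand of the gene. Windows were found for 6 of the 8 genes. Capitals mark matches on either strand to CCAAT, which binds the factor NF-Y, and to the core of the cell cycle homology region, an element known from genes of late cell cycle stages, in the form TTTGAA or the less frequent form of this element, TTCGAA. The motifs do not overlap each other in these windows. Mki67 is read from chromosome 7, 135716330 to 135716629, minus strand, and Top2a from chromosome 11, 99024140 to 99024439, minus strand.
Mki67: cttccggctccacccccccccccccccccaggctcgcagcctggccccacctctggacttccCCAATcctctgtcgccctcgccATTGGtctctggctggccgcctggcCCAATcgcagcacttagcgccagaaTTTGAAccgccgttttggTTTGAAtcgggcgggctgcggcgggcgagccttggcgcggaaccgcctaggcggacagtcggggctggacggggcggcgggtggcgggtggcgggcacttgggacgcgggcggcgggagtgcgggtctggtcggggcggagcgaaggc
Top2a: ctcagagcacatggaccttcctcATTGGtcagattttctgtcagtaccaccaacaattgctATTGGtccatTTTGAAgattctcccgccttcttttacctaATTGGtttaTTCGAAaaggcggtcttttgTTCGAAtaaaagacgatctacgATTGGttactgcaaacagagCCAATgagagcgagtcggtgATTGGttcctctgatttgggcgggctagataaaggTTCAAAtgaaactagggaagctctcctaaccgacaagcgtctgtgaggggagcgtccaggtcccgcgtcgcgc

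The Mki67 window held 3 matches to CCAAT, 2 to TTTGAA and 0 to TTCGAA. The Top2a window held 6 to CCAAT, 2 to TTTGAA and 2 to TTCGAA. Among the 32851 windows in the RefSeq table, 37.4% held at least 1 CCAAT, 17.9% at least 1 TTTGAA, 1.56% at least 1 TTCGAA, and 6.95% both CCAAT and TTTGAA. At least 2 TTTGAA matches were found in 2.31% of windows and 5 or more CCAAT matches in 0.271%. A match describes the letters of the window and not a bound site.

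The start regions of the progenitor factors are shown because these factors bind the E-box, CANNTG, which is its own reverse complement and is marked by capitals. Neurog1 is read from chromosome 13, 56252131 to 56252430, minus strand, and Neurod1 from chromosome 2, 79456587 to 79456886, minus strand.
Neurog1: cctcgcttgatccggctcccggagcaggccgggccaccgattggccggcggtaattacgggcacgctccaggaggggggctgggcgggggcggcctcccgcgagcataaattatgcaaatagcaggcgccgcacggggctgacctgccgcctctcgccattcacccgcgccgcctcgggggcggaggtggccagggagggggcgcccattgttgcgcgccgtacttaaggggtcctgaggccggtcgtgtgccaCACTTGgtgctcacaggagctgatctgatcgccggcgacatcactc
Neurod1: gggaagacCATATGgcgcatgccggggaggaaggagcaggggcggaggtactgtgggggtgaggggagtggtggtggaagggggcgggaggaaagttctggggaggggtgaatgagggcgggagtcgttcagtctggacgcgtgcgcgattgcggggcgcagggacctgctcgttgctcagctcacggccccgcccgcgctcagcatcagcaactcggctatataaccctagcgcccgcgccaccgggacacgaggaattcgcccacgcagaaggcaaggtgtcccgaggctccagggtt

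Each of these windows held 1 E-box. Of all windows, 72.3% held at least 1, so the presence of 1 match does not set these genes apart from other genes.

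The tissue label was matched by high levels of Omp, the marker of mature olfactory sensory neurons, at 4018 to 5215 CPM, and of Cyp2g1, a cytochrome P450 of the sustentacular support cells, at 4383 to 5983 CPM. Ms4a6c was at 3.84 to 4.99 CPM in wild-type mice, at 0 counts in the 3 Ms4a cluster knockout mice, and at 0 to 2.35 expected counts in the Ms4a6c knockout mice. Expected counts per mouse summed to between 13954591 and 21987174. The libraries of wild-type mouse 1 and Ms4a cluster knockout mouse 2 stood apart: the nasal gland list, genes of secretory glands under the epithelium, summed to 320100 and 342200 CPM in them against 18120 to 52670 CPM in the other 7, and they are called gland-rich below. Xist, read from the inactive X chromosome, was at 0 to 2.61 CPM in wild-type mouse 1, Ms4a6c knockout mice 2 and 3 and Ms4a cluster knockout mouse 3, and at 246.7 to 365.7 CPM in the other 5. Labels do not give sex, and the genotypes were unequal in this measure.

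Levels of the 8 genes are given as CPM after scaling by edgeR's TMM method, which removes the dilution that a few abundant transcripts cause. To order the genes by level, wild-type CPM was divided by the length of the longest transcript in kilobases. Tubb3 was highest at 147 ± 15.9 CPM per kilobase (SD, n = 3), followed by Gap43 at 51.7 ± 14.3, Dpysl3 at 38.4 ± 9.21, Gng8 at 9.02 ± 2.72, Top2a at 5.75 ± 1.62, Neurod1 at 5.55 ± 1.56, Mki67 at 3.2 ± 0.46 and Neurog1 at 1.88 ± 0.549. The ranges of neighbours in this order overlapped for Gap43 and Dpysl3, for Gng8 and Top2a, and for Top2a and Neurod1. Tubb3, Gap43 and Dpysl3 were thus above the progenitor factors and proliferation genes, while Gng8 was not apart from all of them. Neurog1 had the fewest reads, 31 counts in wild-type mouse 1 (95% exact Poisson interval 21.1 to 44.0), and every gene was above 3 counts in all 9 mice. Such intervals cover counting error only.

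**Figure D1:**
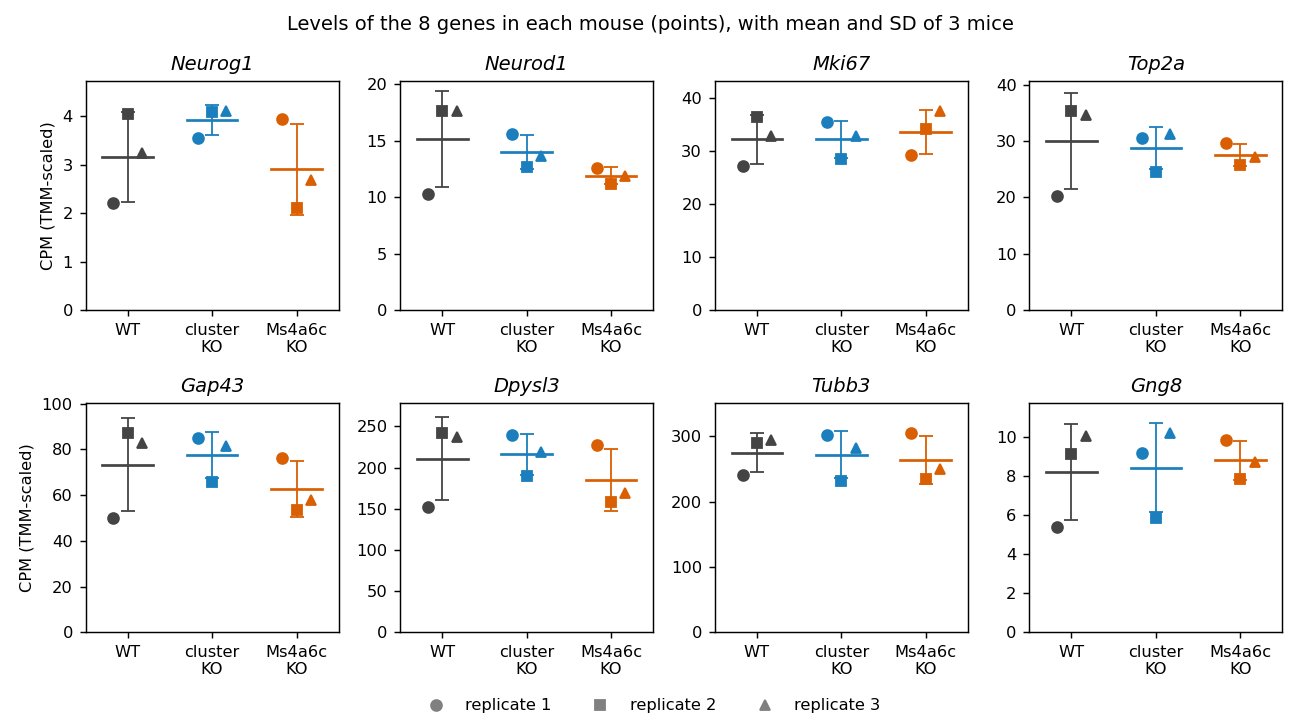
CPM after TMM scaling (y axis, from 0) of each of the 8 genes in each mouse by genotype, with the marker shape giving the replicate number of the label, the line the mean and the bar the SD of 3 mice. Wild-type mouse 1 was the lowest of the 9 for Neurod1, Mki67, Top2a, Gap43, Dpysl3 and Gng8.

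None of the 8 genes passed the test in any comparison of genotypes. With the Ms4a cluster knockout set against wild type, 0 of 8 passed an adjusted p of 0.05 (quasi-likelihood test of edgeR, Benjamini-Hochberg adjustment over all tested genes), where 0.0258% of all genes did. In the Ms4a6c knockout against wild type 0 of 8 passed, against 0.435% of all genes, and between the 2 knockouts 0 of 8, against 0.443%. At an unadjusted p under 0.05 the number was also 0 of 8 in each, where 4.93%, 10.5% and 9.38% of all genes were under it in the 3 comparisons in that order. DESeq2 called 0 of 8 in each, and 0.0826%, 1.95% and 1.30% of the genes it adjusted. The 2 knockout comparisons with wild type share the wild-type mice.

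Progenitor factors came first in the lineage. Neurog1, the factor that commits progenitors to the neuronal fate, was at 2.20, 4.05 and 3.24 CPM in wild-type mice 1, 2 and 3, at 3.56, 4.09 and 4.11 in Ms4a cluster knockout mice, and at 3.94, 2.11 and 2.68 in Ms4a6c knockout mice. Wild-type mouse 1 and Ms4a6c knockout mouse 2 were low and all groups overlapped. The log2 fold change was 0.30 (SE 0.28, adjusted p = 0.976 by edgeR) in the Ms4a cluster knockout and -0.12 (SE 0.28, adjusted p = 0.92 by edgeR) in the Ms4a6c knockout. Between the knockouts the difference was 0.41, the largest of the 8 genes there, with a 95% interval from -0.20 to 1.02. Intervals of this gene were the widest of the set.

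Neurod1, which acts after Neurog1 as neurons differentiate, was at 10.2, 17.6 and 17.6 CPM in wild-type mice, at 15.6, 12.7 and 13.7 in Ms4a cluster knockout mice, and at 12.6, 11.2 and 11.9 in Ms4a6c knockout mice. The Ms4a6c knockout mice lay close together, and wild-type mouse 1, a gland-rich library, was below all of them while wild-type mice 2 and 3 were above. Its log2 fold change in the Ms4a6c knockout against wild type was -0.35 (SE 0.19, unadjusted p = 0.0882, adjusted p = 0.543 by edgeR), the lowest p of the 8 genes in any comparison. Without both gland-rich libraries, an analysis chosen after the values were seen, the difference was -0.56 and passed (adjusted p = 0.0366 by edgeR, 2 wild-type mice). In that setting 352 of the 23225 genes passed, against 101 with all mice. Among the 19 alternatives it was the only one with a call among the 8 genes. Without wild-type mouse 2 the value was -0.23, and Xist level as a covariate also gave -0.23. The part of gland content and of Xist level in this difference was not tested beyond these values.

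The 2 knockouts did not overlap in Neurod1, the Ms4a cluster knockout mice being higher (log2 difference 0.24, SE 0.19, adjusted p = 0.738 by edgeR). It was the only one of the 8 genes whose groups did not overlap in that comparison, where 16.0% of all genes did not. Between wild type and the Ms4a cluster knockout, 0 of 8 did not overlap, against 9.86% of all genes, and in the Ms4a6c knockout against wild type 0 of 8, against 18.3%.

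The ranges of the proliferation genes overlapped between all genotypes. Mki67 was at 27.2, 36.4 and 32.9 CPM in wild-type mice, at 35.4, 28.4 and 32.7 in Ms4a cluster knockout mice, and at 29.3, 34.1 and 37.5 in Ms4a6c knockout mice. The gland-rich libraries were the lowest 2 of the 9, and Ms4a6c knockout mouse 3 the highest. Its log2 change was 0.00 in the Ms4a cluster knockout (95% interval -0.28 to 0.29) and 0.06 in the Ms4a6c knockout (-0.22 to 0.34).

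Top2a was at 20.3, 35.3 and 34.5 CPM in wild-type mice, at 30.6, 24.4 and 31.3 in Ms4a cluster knockout mice, and at 29.6, 25.8 and 27.1 in Ms4a6c knockout mice. As for Mki67, the gland-rich libraries were the lowest 2, but wild-type mice 2 and 3 were the highest. Its log2 change was -0.06 in the Ms4a cluster knockout (95% interval -0.47 to 0.35) and -0.13 in the Ms4a6c knockout (-0.54 to 0.28).

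Among the immature neuron genes, Gap43 and Dpysl3 had nearly the same order of mice. Gap43 was at 50.04, 87.2 and 82.9 CPM in wild-type mice, at 84.8, 65.9 and 81.5 in Ms4a cluster knockout mice, and at 76.4, 53.6 and 57.7 in Ms4a6c knockout mice. Dpysl3 (ENSMUSG00000024501.20) is on chromosome 18 at 43320984 to 43438286, minus strand. Its protein acts on the growth cone cytoskeleton, and Dpysl3 was at 152.4, 241.9 and 237.7 CPM in wild-type mice, at 239.2, 190.3 and 218.3 in Ms4a cluster knockout mice, and at 227.4, 158.6 and 168.8 in Ms4a6c knockout mice. For both genes wild-type mouse 1 and Ms4a6c knockout mice 2 and 3 were the lowest 3, Ms4a cluster knockout mouse 2 came next, and every pair of groups overlapped. The wider immature neuron list of 26 genes, which includes both, summed lowest in Ms4a cluster knockout mouse 2 (3942 CPM), and 7 of its genes were each lowest in those 3 mice. Those lowest 3 are also among the 4 mice low in Xist, while the fourth of these, Ms4a cluster knockout mouse 3, was at 81.5 CPM for Gap43. The stroma and vessel list of 14 genes, none at 0 in any mouse, was also lowest in those 3 mice, at 3627 to 3985 CPM summed against 4855 to 8377 CPM in the other 6, and 5 of its genes were each lowest there. The list of 15 genes of the olfactory bulb and other neurons was lowest there too, at 1136 to 1205 against 1212 to 1291 CPM. That difference was small, and 0 of its genes were each lowest there. The respiratory and ciliated cell list of 11 genes was highest there, at 4320 to 4822 against 3632 to 4270 CPM. The part of Xist level and of these other cells in the Gap43 difference between mice was not tested.

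The log2 fold changes of Gap43 were 0.08 (95% interval -0.37 to 0.53) in the Ms4a cluster knockout and -0.23 (-0.68 to 0.22) in the Ms4a6c knockout. For Dpysl3 they were 0.04 (-0.38 to 0.45) and -0.19 (-0.60 to 0.22). Tubb3, at 231.3 to 304.7 CPM, varied least of the immature neuron genes, and its log2 fold changes were -0.02 (-0.30 to 0.26) and -0.06 (-0.34 to 0.22). Gng8, which is replaced by other gamma subunits as neurons mature, was at 5.40 to 10.2 CPM with the 2 gland-rich libraries lowest, and its fold changes were 0.05 (-0.51 to 0.61) and 0.10 (-0.45 to 0.66). Over the 8 genes, 5 values were positive and 3 negative for the Ms4a cluster knockout against wild type, 2 and 6 in the Ms4a6c knockout against wild type, and 6 and 2 between the knockouts. The medians were 0.02, -0.12 and 0.15 on the log2 scale, where those of all genes were 0.01, 0.00 and 0.01.

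**Figure D2:**
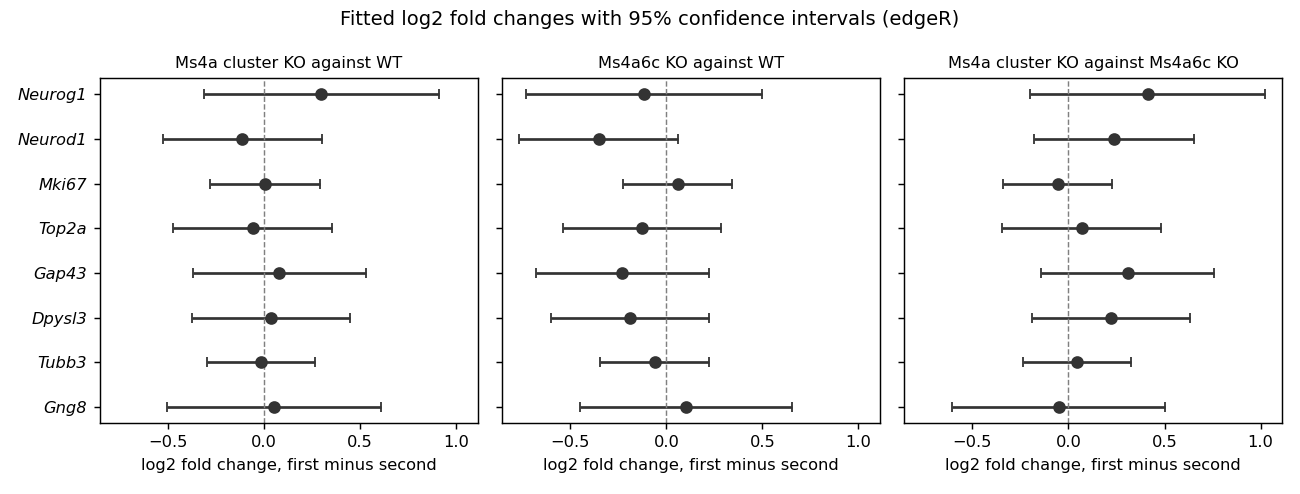
Log2 fold change (x axis, first group minus second, edgeR fit of all 9 mice) of the 8 genes in each of the 3 comparisons, with 95% confidence intervals as bars and 0 as the dashed line. Every interval includes 0, and those of Tubb3 and Mki67 are the narrowest.

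In the wider lists of the same steps, which include the 8, 0 of 25 neurogenic progenitor genes and 0 of 26 immature neuron genes passed in any comparison. Of 40 proliferation genes 1 passed, between the knockouts, where 0.443% of all genes did. That gene was Pcna, the DNA polymerase clamp, higher in the Ms4a cluster knockout than in the Ms4a6c knockout (log2 difference 0.31, SE 0.05, adjusted p = 0.0398 by edgeR). Pcna was at 58.3 to 59.9 CPM in Ms4a6c knockout mice and at 69.0 to 76.8 CPM in the other 6 mice. Its retrocopy Pcna-ps2, named after its values were seen, was at 7.07 to 9.10 CPM in Ms4a6c knockout mice and at 0.701 to 1.39 CPM in the others, so how reads were divided between these near-identical sequences is uncertain.

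Among progenitor genes in the Ms4a6c knockout against wild type, 4 of 25 had an unadjusted p under 0.05, where 10.5% of all genes did. The lowest p values belonged to the neuronal factor Nhlh2 at -0.82 (SE 0.23, adjusted p = 0.228 by edgeR), to Sox2 of basal and support cells at 0.20 (adjusted p = 0.299 by edgeR), and to Sox11 of new neurons at -0.52 (adjusted p = 0.401 by edgeR). In the Ms4a cluster knockout the lowest included Kit, a receptor of globose basal cells, at 0.24 (adjusted p = 0.968 by edgeR) and Hes6 at 0.15. Proliferation genes with the lowest p were Mcm7, Tk1 and Cdca8 in the Ms4a cluster knockout, Pcna, Cenpe and Cdca8 in the Ms4a6c knockout, and Pcna, Cenpe and Mcm2 between the knockouts. Cenpe, a kinetochore motor, was at -0.46 in the Ms4a6c knockout (adjusted p = 0.266 by edgeR).

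Of the 26 immature neuron genes, 21 had a negative value in the Ms4a6c knockout against wild type, with a median log2 fold change of -0.11. By edgeR 0 had an unadjusted p under 0.05, where 10.5% of all genes did, and the median of all genes was -0.0016. Genes of this list varied together across the mice, so their signs are not separate observations. The list summed to 4486 to 4855 CPM in Ms4a6c knockout mice, inside the wild-type range of 4055 to 5303 CPM. The lowest p there belonged to Hdac2 at -0.14, Nrn1 at -0.49 and Dcx, the microtubule protein of migrating neurons, at -0.23. In the Ms4a cluster knockout 14 were positive and 12 negative, led by Emx2, Kdm1a and Map1b. Between the knockouts the lowest p values belonged to Kdm1a, Gap43 and Stmn4.

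Many pairs of the 8 genes, none of them with Mki67, varied together across the 9 mice. Pearson r of log2(CPM + 0.5) was positive for all 28 pairs of genes, from 0.011 to 0.99 with a median of 0.725. By an exact two-sided permutation test over the 9 mice with Benjamini-Hochberg adjustment over the 28 pairs, 13 pairs passed 0.05, and 16 had an unadjusted p under 0.05. The points of a pair share the mouse, its library scaling and its tissue composition. How often pairs of other genes would pass was not computed. After each genotype's mean was removed, 11 pairs passed, and r of the 28 pairs ran from 0.101 to 0.992. Many pairs thus varied together among mice of the same genotype too, but not all were the same pairs. Neurog1 with Gap43 or Dpysl3 and Neurod1 with Top2a no longer passed, and Neurod1 with Tubb3 did. Both gland-rich libraries stay in this setting, and their part in it was not tested.

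**Figure D3:**
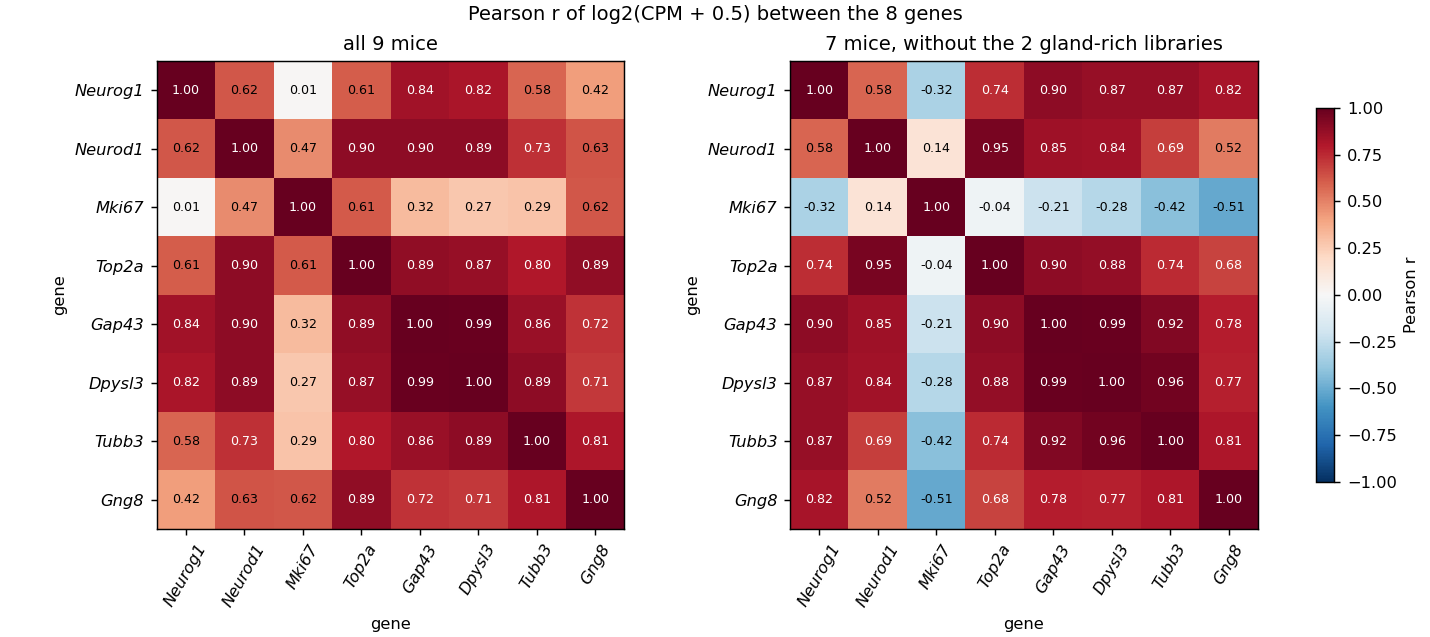
Pearson r between the 8 genes (rows and columns, in the same order) in all 9 mice on the left and in the 7 mice without the gland-rich libraries on the right, on a scale from -1 to 1. The 21 pairs without Mki67 are positive in both, and 6 of the 7 pairs with Mki67 are negative on the right.

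Gap43 and Dpysl3 were the closest pair, with r = 0.99 and Spearman's rho = 0.983 (exact permutation p = 4.41e-05 for r, adjusted 0.00123, and p = 4.96e-05 for rho). Each was the gene most like the other among 16536 genes with a mean of at least 1 CPM. In the other pairs that passed, the partner ranked from 56 (Dpysl3 for Tubb3) to 411 (Tubb3 for Gng8). Many other genes thus had a higher r with a gene of those pairs than its partner had. The ratio of Gap43 to Dpysl3 in CPM ran from 0.328 to 0.374, with a coefficient of variation of 3.96%, although the highest mouse was 1.74-fold above the lowest for Gap43 and 1.59-fold for Dpysl3. Without the 2 mice farthest from the median r was 0.976 (exact permutation p = 0.00317, adjusted 0.0296), and it passed in 17 of the 18 settings tried, counting the one reported. The exception left out the 3 mice lowest in Gap43.

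Top2a went with most of the neuronal genes. Its r was 0.898 with Neurod1 (rho 0.867), 0.889 with Gap43 (rho 0.9), 0.886 with Gng8 (rho 0.8) and 0.873 with Dpysl3 (rho 0.867), with adjusted exact permutation p of 0.00667, 0.00667, 0.00667 and 0.0081 for r. By rho, Top2a with Gng8 did not pass (adjusted exact permutation p = 0.0553). With Neurog1 the r of Top2a was 0.607 and did not pass (adjusted exact permutation p = 0.112). Neurod1 had r = 0.898 with Gap43 (adjusted exact permutation p = 0.0081) and 0.892 with Dpysl3 (adjusted exact permutation p = 0.00837). Without the 2 mice farthest from the median, 3 of the 28 pairs passed: Neurod1 with Gap43, Neurod1 with Dpysl3, and Gap43 with Dpysl3. The 10 other pairs that had passed with all mice had r from 0.49 to 0.851 with the 7 mice left, with a median of 0.8, and 7 of them an unadjusted exact permutation p under 0.05. Which 2 mice were left out differed from pair to pair, as the median was that of 1 gene of the pair only. For Neurod1 with Gap43 or Dpysl3 they were wild-type mice 2 and 3, by the median of Neurod1. For Gap43 with Dpysl3 they were wild-type mouse 1 and Ms4a6c knockout mouse 2. Without the gland-rich libraries, Neurod1 did not pass with Gap43 or with Dpysl3 (r = 0.848 and 0.84, adjusted exact permutation p = 0.0556 for both). In the same mice Top2a passed with Neurod1, Gap43 and Dpysl3 (r = 0.947, 0.897 and 0.88). Top2a did not pass with Gng8 or Tubb3 there (r = 0.679 and 0.744, adjusted exact permutation p = 0.142 and 0.108).

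The number of pairs that passed depended on which mice were used. With ranks in place of values 6 pairs passed, without the 2 gland-rich libraries 5, and without wild-type mouse 1 and Ms4a6c knockout mice 2 and 3, the 3 lowest in Gap43, 1. Leaving out Ms4a cluster knockout mouse 3 alone left 8. Leaving out these libraries leaves 6 or 7 mice, with which fewer pairs can pass. The median r of the 21 pairs without Mki67 was 0.818 with all mice, 0.84 without the gland-rich libraries and 0.767 without the 3 lowest in Gap43. Without the 3 lowest in Gap43, Neurog1 had a negative r with all 7 other genes, as with Gap43, where r went from 0.836 to -0.37. The settings without named libraries were chosen after the values were seen. Choosing mice by their level of Gap43 by itself changes r, so the values without the 3 lowest are a description and not a test.

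**Figure D4:**
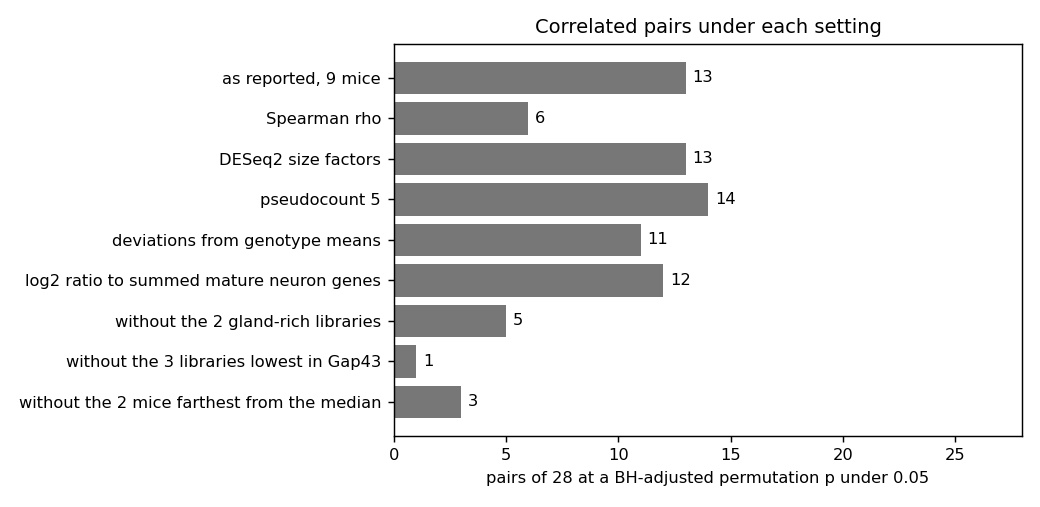
Number of the 28 pairs at a Benjamini-Hochberg adjusted exact permutation p under 0.05 (x axis, to 28) for each way of computing the correlation (y axis). The count is 13 as reported and between 1 and 14 under the other settings drawn.

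Mki67 passed with 0 of the other 7 genes. Its r was 0.611 with Top2a (rho 0.517, exact permutation p = 0.0797, adjusted 0.112), 0.619 with Gng8, 0.473 with Neurod1, 0.317 with Gap43 and 0.011 with Neurog1. In the 7 mice that were not gland-rich, r with Top2a was -0.045 (exact permutation p = 0.924). This too changed with the mice used: without the 3 lowest in Gap43, the 1 pair that passed was Gap43 with Mki67, at r = 0.91 (exact permutation p = 0.00139, adjusted 0.0389). Those mice were left out by their level of Gap43 itself, which alone changes r, so no conclusion is drawn from this p. Whether the r of Mki67 differed from those of the other genes was not tested.

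The ratio of Mki67 to Top2a in CPM was 1.34, 1.03 and 0.952 in the wild type, 1.16, 1.16 and 1.05 in Ms4a cluster knockout mice, and 0.988, 1.32 and 1.38 in Ms4a6c knockout mice. It was highest in Ms4a6c knockout mice 3 and 2 and wild-type mouse 1, and the groups overlapped. Of the 38 other proliferation genes with a mean of at least 1 CPM, 24 had a higher r with Top2a and 14 with Mki67.

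**Figure D5:**
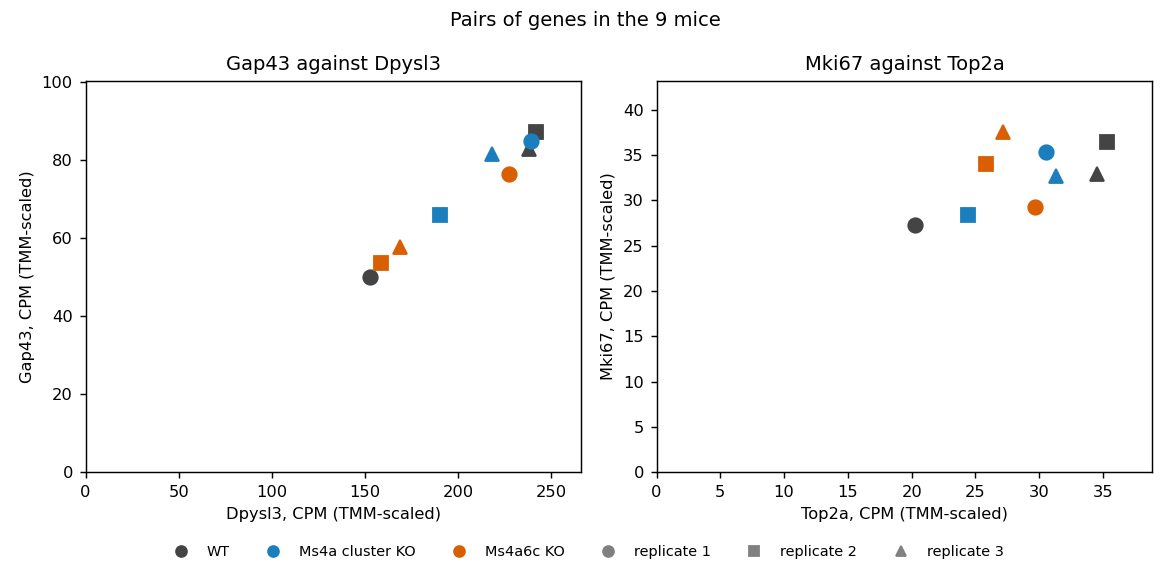
CPM of Gap43 against Dpysl3 (left) and of Mki67 against Top2a (right) in the 9 mice, both axes from 0, with colour for genotype and shape for the replicate number. The left points lie near a line through 0, and on the right Ms4a6c knockout mice 2 and 3 are high in Mki67 for their level of Top2a.

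The ratio was set beside markers of blood cell precursors. Dividing precursors of granulocytes use both Mki67 and Top2a. The 4 granule genes Mpo, Elane, Prtn3 and Ctsg were chosen after their values were seen. They summed to 9.60, 10.7 and 5.80 CPM in the wild type, 17.5, 10.96 and 10.5 in Ms4a cluster knockout mice, and 7.87, 23.3 and 33.8 in Ms4a6c knockout mice. Against the ratio of Mki67 to Top2a the sum had r = 0.775 (exact permutation p = 0.0136, adjusted 0.0788 over the 26 relations of this kind computed) and rho = 0.717 (exact permutation p = 0.0369, adjusted 0.262). Without Ms4a6c knockout mice 2 and 3, the 2 farthest from the median, r was 0.512 (exact permutation p = 0.223), so the relation rested on them. In the 7 mice without the gland-rich libraries r was 0.983 (exact permutation p = 0.000397, not adjusted). None of the 26 relations passed after adjustment, and the adjustment does not cover the choice of the granule genes. Against each gene by itself, r of the sum was 0.569 for Mki67 and -0.248 for Top2a (adjusted exact permutation p = 0.22 and 0.61).

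The whole bone marrow and blood list of 21 genes summed to 899.2 to 1309 CPM in wild-type mice, 1361 to 2658 in Ms4a cluster knockout mice and 1015 to 2806 in Ms4a6c knockout mice. In the Ms4a6c knockout against wild type 20 of 21 had a positive value, with a median log2 fold change of 1.24, and 0 passed by edgeR. At an unadjusted p under 0.05 there were 16, where 10.5% of all genes were under it. Ms4a6c knockout mice 2 and 3 were at 2317 and 2806 CPM, and mouse 1, at 1015 CPM, was within the wild-type range. For the Ms4a cluster knockout 21 of 21 were positive, and 0 passed (0 at an unadjusted p under 0.05, against 4.93% of all genes). The part of blood or marrow cells in the level of Mki67 was not tested.

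The mice fell into 2 clusters by the nasal gland list, so no r over all 9 is given for it. Within the 7 gland-poor mice, r of the summed list with the 8 genes was between -0.676 for Tubb3 and -0.128 for Mki67, and the lowest exact permutation p was 0.0813. The mature sensory neuron list summed to 16800 to 21260 CPM, lowest in Ms4a cluster knockout mouse 2. With each gene taken relative to that sum, 12 pairs passed in place of 13. Per 1000 CPM of Omp, Gap43 was at 11.1, 10.3 and 11.5 in wild-type mouse 1 and Ms4a6c knockout mice 2 and 3 and at 15.8 to 17.1 in the other 6, so the low level of Gap43 in those 3 mice was present relative to mature neurons too.

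Other genes followed the 8 across the mice. For each of them the 3 genes with the highest r over the 9 mice are given as a description, without a test. Gap43 was followed by Nsg2, 2810025M15Rik and Thsd7b (r from 0.978 to 0.985), and Dpysl3 by 2810025M15Rik, Gpr137c and Dkk1 (0.972 to 0.975). Gng8 was followed by Crmp1, another collapsin response mediator and a member of the immature neuron list, with r = 0.98, and by Fam149a and Rhod. Neurod1 was followed by Stmn3, Septin8 and Cemip2, Tubb3 by Sult4a1, Sema3a and Bzw2, and Top2a by Gpatch2l, Ctnnd2 and Septin5. Neurog1 was followed by Adamtsl4, Slc41a3 and Cacng4, and Mki67 by Zkscan3, Hs6st1 and Ppp4r1l-ps, none of which is in the progenitor, proliferation or immature neuron list.

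Other immature neuron genes had a high median r with most of the 8. The median r of the 22 other genes of that list with a mean of at least 1 CPM was 0.785 with Gap43, 0.78 with Dpysl3, 0.762 with Gng8, 0.761 with Tubb3, 0.823 with Top2a, 0.741 with Neurod1, 0.478 with Neurog1 and 0.503 with Mki67. The 14 genes of the stroma and vessel list had a median r of 0.653 with Neurod1 and 0.496 with Neurog1. With the rest of the 8 it was from 0.202 (Mki67) to 0.491 (Top2a). The 22 other progenitor genes had a median of 0.414 with Neurod1 and 0.273 with Neurog1. Co-variation was thus not confined to genes of the lineage. Over all 16536 genes the median r was between -0.018 and 0.044. Krt5, the keratin of horizontal basal cells, was at 46.5 to 63.6 CPM. The globose basal cell genes Kit and Lgr5 were at 13.3 to 17.2 and 10.02 to 18.4 CPM.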

How the data were processed

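RNA-seq libraries of the main olfactory epithelium of 9 mice were analysed, 3 per genotype as labelled. For these directional poly-A libraries the authors aligned reads with STAR 2.6.1, estimated expected counts per gene with RSEM 1.3.1 on GENCODE M25 (GRCm38), and deposited the expected counts without normalization. Here the expected counts were rounded, scaled by TMM and tested with edgeR 4.0.16 (quasi-likelihood, Benjamini-Hochberg adjustment, R 4.3.3, one model of 9 mice, at least 10 summed counts). Each SE is the log2 fold change over the square root of F. DESeq2 1.42.0 on the same genes was an alternative. Correlations used log2(CPM + 0.5) and exact two-sided permutation over mice (Python 3.11.15, numpy 2.4.6). Gene coordinates are from GENCODE M21 on the same build, and start regions from RefSeq. Both procedures were tested on simulated data.

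Totals were 13954591 to 21987174 expected counts per mouse, where 3 counts are 0.136 to 0.215 CPM. Poisson intervals of counts cover counting error only. Intervals of fold changes were built from the SE of the edgeR test and so include the spread between these mice. The edgeR p-values set a genotype difference against that spread. The p-values of correlations come from reordering the mice.

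The 8 genes and the gene lists were chosen with earlier results of these data known. Named were the 8 genes, in each comparison the 3 genes of the progenitor, proliferation and immature neuron lists with the lowest p and any that passed, the 3 genes with the highest r with each of the 8, and the reference genes Omp, Kit, Lgr5, Krt5, Cyp2g1, Bpifb3, S100a8 and Ms4a6c. One gene that this rule names is not reported here. Others are named as chosen after their values were seen, except Xist, used as a covariate, and Cerkl and Gm20388, named for their overlap. Alternatives were other scalings, filters, samples in the fit, a replicate block, leaving out mice, and covariates for gland, mature neuron and Xist levels.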

Additional observations from a re-analysis of the deposited data

How the results depend on the processing

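Among 19 alternatives in each comparison, 1 gave a call among the 8 genes: Neurod1 in the Ms4a6c knockout without the 2 gland-rich libraries, where 1 of 8 passed in place of 0. Of all 23225 genes, 352 passed in that setting in place of 101. Over the 19 alternatives of that comparison Neurod1 ran from -0.56 to -0.23 on the log2 scale, with adjusted p from 0.0366 to 0.797 by edgeR or DESeq2, and the cause was not tested. Leaving out 1 mouse at a time gave 0 of 8 in every comparison. Of 456 recomputed fold changes, 50 had the opposite sign, each of a value within 0.13 of 0 and with an adjusted p of 0.756 or more by edgeR or DESeq2. The settings without named libraries, the Xist covariate, and leaving out single mice from the correlations were chosen after the data were seen. With 3 mice a group and 31 counts at the lowest, differences inside the printed intervals were not excluded. The intervals were not adjusted for the number of genes tested, so differences outside them could also have failed to pass. The smallest difference that would pass was not computed.

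In the Ms4a cluster knockout the sign turned without the gland-rich libraries for Gap43 (-0.031), Dpysl3 (-0.067) and Mki67 (-0.024), with the mature neuron covariate for Tubb3 (0.066) and Top2a (0.064), and for Mki67 with DESeq2's size factors (-0.0027) and by DESeq2 (-0.002). In the Ms4a6c knockout it turned with the Xist covariate for Neurog1 (0.0006), with the nasal gland covariate for Gng8 (-0.028) and Mki67 (-0.0018), and without the gland-rich libraries for Gng8 (-0.11) and Mki67 (-0.045). Between the knockouts it turned for Gng8 and Mki67 with the nasal gland covariate (0.10 and 0.011), with the mature neuron covariate (0.22 and 0.082) and without the gland-rich libraries (0.13 and 0.021), and with the Xist covariate for Tubb3 (-0.012) and Top2a (-0.016).

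With 1 mouse left out, the range in the Ms4a cluster knockout was -0.33 to 0.0065 for Neurod1, -0.13 to 0.22 for Gap43, -0.17 to 0.24 for Gng8, -0.15 to 0.15 for Dpysl3, -0.10 to 0.084 for Tubb3, -0.10 to 0.10 for Mki67 and -0.27 to 0.072 for Top2a. In the Ms4a6c knockout it was -0.41 to 0.10 for Neurog1, -0.12 to 0.27 for Gng8, -0.18 to 0.0104 for Tubb3, -0.047 to 0.16 for Mki67 and -0.34 to 0.0035 for Top2a. Between the knockouts it was -0.21 to 0.14 for Gng8, -0.038 to 0.16 for Tubb3 and -0.15 to 0.029 for Mki67.

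Over all genes, 6 were called in the Ms4a cluster knockout, 18 by DESeq2, and 3 to 7 with 1 mouse left out (3 without wild-type mouse 2, wild-type mouse 3 or Ms4a6c knockout mouse 3). In the Ms4a6c knockout 101 were called, 345 by DESeq2, 182 without the filter, 197 with the nasal gland covariate, 160 with the mature neuron covariate, 352 without the gland-rich libraries, and 59 to 159 with 1 mouse left out (59 without wild-type mouse 2, 60 without wild-type mouse 3, 66 without Ms4a6c knockout mouse 3, 159 without Ms4a cluster knockout mouse 2). Between the knockouts 103 were called, 271 by DESeq2, 155 without the filter, 164 with the nasal gland covariate, and 66 to 121 with 1 mouse left out (66 without Ms4a6c knockout mouse 2, 67 without mouse 3). The replicate numbers did not pair the mice: deviations of same-numbered mice had a mean r of -0.132, and those of other mice 0.07. With the replicate number as a block, 2, 71 and 75 genes were called, and 0 of the 8.

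Of the 28 pairs of genes, 13 passed, and 6 with Spearman's rho, 5 without the gland-rich libraries, 1 without the 3 mice lowest in Gap43 and 3 without the 2 farthest mice. With 1 mouse left out the count was 8 to 18 (8 without Ms4a cluster knockout mouse 3). The other settings gave 11 to 14.

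The r of Neurog1 with Mki67 was -0.15 with Spearman's rho, -0.01 with DESeq2's size factors, -0.006 with a pseudocount of 5, -0.317 without the gland-rich libraries, -0.275 without the 3 mice lowest in Gap43, -0.567 without the 2 farthest mice, and from -0.433 to 0.185 with 1 mouse left out. Without the 3 mice lowest in Gap43, r of Neurog1 was -0.587 with Neurod1, -0.37 with Gap43, -0.356 with Gng8, -0.514 with Dpysl3, -0.429 with Tubb3 and -0.404 with Top2a. Without the 2 farthest mice, r was -0.159 for Neurog1 with Gng8, and for Mki67 it was -0.513 with Gng8, -0.014 with Dpysl3 and -0.045 with Top2a. Without the gland-rich libraries, r of Mki67 was -0.214 with Gap43, -0.513 with Gng8, -0.284 with Dpysl3, -0.421 with Tubb3 and -0.045 with Top2a. Relative to mature neuron genes, r of Mki67 with Tubb3 was -0.16. With 1 mouse left out, r of Mki67 ran from -0.028 to 0.574 with Gap43 and from -0.079 to 0.525 with Dpysl3.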

Other observations

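Reference genes outside the 8 gave these values. Bpifb3, a secreted protein of the BPI fold family, was at 2308 to 3230 CPM. S100a8, a granulocyte gene, was at 17.2 to 21.5 CPM in wild-type mice, at 41.8, 21.7 and 18.9 CPM in Ms4a cluster knockout mice 1, 2 and 3, and at 18.1, 36.9 and 52.1 CPM in Ms4a6c knockout mice.

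Values of the other cell type lists, as medians of the log2 fold change against wild type in first the Ms4a cluster knockout and then the Ms4a6c knockout, were -0.06 and 0.06 for 20 mature sensory neuron genes, 0.01 and 0.105 for 10 horizontal basal cell genes, -0.01 and 0.15 for 14 sustentacular cell genes, 0.03 and -1.22 for 19 nasal gland genes, and -0.10 and 0.00 for 11 respiratory and ciliated cell genes. They were 0.14 and 0.03 for 12 ensheathing glia and Schwann cell genes, 0.17 and -0.17 for 17 immune cell genes, 0.59 and 1.24 for 21 bone marrow and blood genes, -0.06 and -0.22 for 14 stroma and vessel genes, and 0.43 and 0.02 for 15 genes of the olfactory bulb and other neurons.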
